A study of Mus musculus with 4 samples.

Results

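MHC class I antigen presentation was followed through 10 genes: H2-K1, H2-D1, H2-T23, B2m, Tap1, Tap2, Tapbp, Nlrc5, Erap1 and Calr. They are the rows of the F123 RNAseq table whose MGI symbol is one of these names, 10 of the 24026 genes listed. The RNA came from untreated F123-ESCs, a male mouse embryonic stem cell line from 1 cross, with maternal chromosomes of S129 and paternal chromosomes of CAST. The cells were grown with LIF and KSR on inactivated feeder fibroblasts, moved to gelatin without feeders for at least 2 passages and harvested about 48 h later. PolyA RNA of 4 libraries, replicates 1 to 4, was sequenced, and each gene has an RPKM (reads per unit of gene length and of sequencing depth) for its S129 and its CAST allele in each library, or 8 values. No other condition was measured, so the comparison is between the alleles within a library, and since S129 is always the maternal copy, strain and parent of origin cannot be told apart. Nothing says that the libraries came from separate cultures, so the p-values measure only the spread between these libraries, which may be technical.

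Class I molecules show peptides from inside the cell to cytotoxic T cells and to natural killer cells. Peptides cut by the proteasome are pumped into the endoplasmic reticulum by the transporter Tap1/Tap2, trimmed by Erap1 and loaded, with the help of Tapbp (tapasin) and Calr (calreticulin), onto a heavy chain bound to B2m. Nlrc5 is the transactivator of class I genes and acts through a promoter module of X and Y boxes, beside sites for NF-kappa B and interferon regulatory factors. Embryonic stem cells are known for low surface class I, and the heavy chains H2-K1 and H2-D1 are among the most polymorphic genes of the mouse.

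The DNA before the start of the heavy chain gene H2-K1 and of the light chain gene B2m is shown because these letters are where the class I promoter module is read, and because H2-K1 had the largest allele difference of the members tested. Both are from RefSeq (GRCm38.p6, the mm10 assembly), which is the reference strain and not S129 or CAST. Capitals mark the motif matches, which in order are kappa B, interferon response, cAMP response core and Y box in H2-K1 (chr17:34000348-34000597, minus strand, the 250 bases before the start) and TATA box, kappa B, cAMP response core and Y box in B2m (chr2:122147437-122147685, plus strand, 249 bases that end 2 before the start). The TATA box match of B2m reads TTTATA, the searched letters on the opposite strand, from -152 to -147. Only the searched letters are marked, so sites with other letters or spacing are not, and their absence cannot be read from the capitals.
H2-K1: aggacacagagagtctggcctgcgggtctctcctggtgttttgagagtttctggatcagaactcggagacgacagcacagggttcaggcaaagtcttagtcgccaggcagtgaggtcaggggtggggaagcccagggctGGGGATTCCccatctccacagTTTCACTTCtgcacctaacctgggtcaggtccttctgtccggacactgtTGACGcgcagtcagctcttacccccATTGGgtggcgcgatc
B2m: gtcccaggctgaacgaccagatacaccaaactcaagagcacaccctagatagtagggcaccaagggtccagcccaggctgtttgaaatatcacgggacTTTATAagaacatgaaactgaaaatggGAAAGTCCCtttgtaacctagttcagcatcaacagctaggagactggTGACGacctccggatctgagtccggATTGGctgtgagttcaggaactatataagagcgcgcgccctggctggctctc

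The RefSeq promoter windows of H2-K1 and H2-D1 held the same motifs in the same order, and H2-K1, H2-D1 and B2m shared the arrangement of a cAMP response core followed by a reversed Y box. For H2-D1, all 250 bases before the RefSeq start lie within exons of H2-D1 in the GENCODE annotation. The stretch from the kappa B to the interferon response match was 29 of 30 bases the same in both heavy chain genes, at chr17:34000429-34000458 (minus strand) for H2-K1 and chr17:35262923-35262952 (plus strand) for H2-D1, with the matches in capitals.
H2-K1: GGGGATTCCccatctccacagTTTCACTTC
H2-D1: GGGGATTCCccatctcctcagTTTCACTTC
The stretch from the cAMP response core to the Y box was 30 bases long in all 3 genes, at chr17:34000359-34000388 (minus strand), chr17:35262993-35263022 (plus strand) and chr2:122147609-122147638 (plus strand). H2-D1 shared 23 of these 30 bases with H2-K1, and B2m shared 13. Both counts include the 5 searched bases at each end, which are the same by construction.
H2-K1: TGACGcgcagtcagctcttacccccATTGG
H2-D1: TGACGcgctggcaggtctcactatcATTGG
B2m: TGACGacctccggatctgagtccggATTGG
This arrangement, with 20 bases between, was defined after these windows were read. It was in 31 of 32851 RefSeq promoter windows, or 0.0944%, and in 3 of the 8 members that have such a window. Of 18 other class I and class I-like chains with a window, H2-M3 had it.

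Motifs were searched on both strands of the 300 bases around each start, 250 before and 50 after it. The kappa B motif was searched as GGGNNTTNC and was in 15.2% of all promoter windows. The interferon response motif, GAANNGAAA, was in 7.52%, and the STAT motif, TTCNNNGAA, in 8.30%. The cAMP response core, TGACG, was in 20.8% of the windows. The Y box, CCAAT, was in 37.4%. The TATA box, TATAAA, was in 13.6%. No match overlapped another in the members' windows. A window was given for 8 of the 10 members, all but Tap2 and Nlrc5. As for H2-D1, no base before the start lay outside annotated exons for Tap1, Tapbp and Erap1. The window of Tap1 overlaps exons of Psmb9, and that of Tapbp exons of Zbtb22 and Gm19412. For H2-T23 the longest stretch outside exons was 96 bases. The RefSeq start used for Tapbp, 33919478, lies inside the transcript behind its RPKM, which runs from 33915899 to 33920415. Outside H2-K1, H2-D1 and B2m, Tap1 held a cAMP response core and a Y box, and Tapbp 2 Y boxes. Calr held 2 Y boxes and a TATA box. The heavy chain gene H2-T23 held only 1 Y box, and Erap1 none of these letters. A match is a description of the reference letters, and no binding was measured here.

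**Figure D1:**
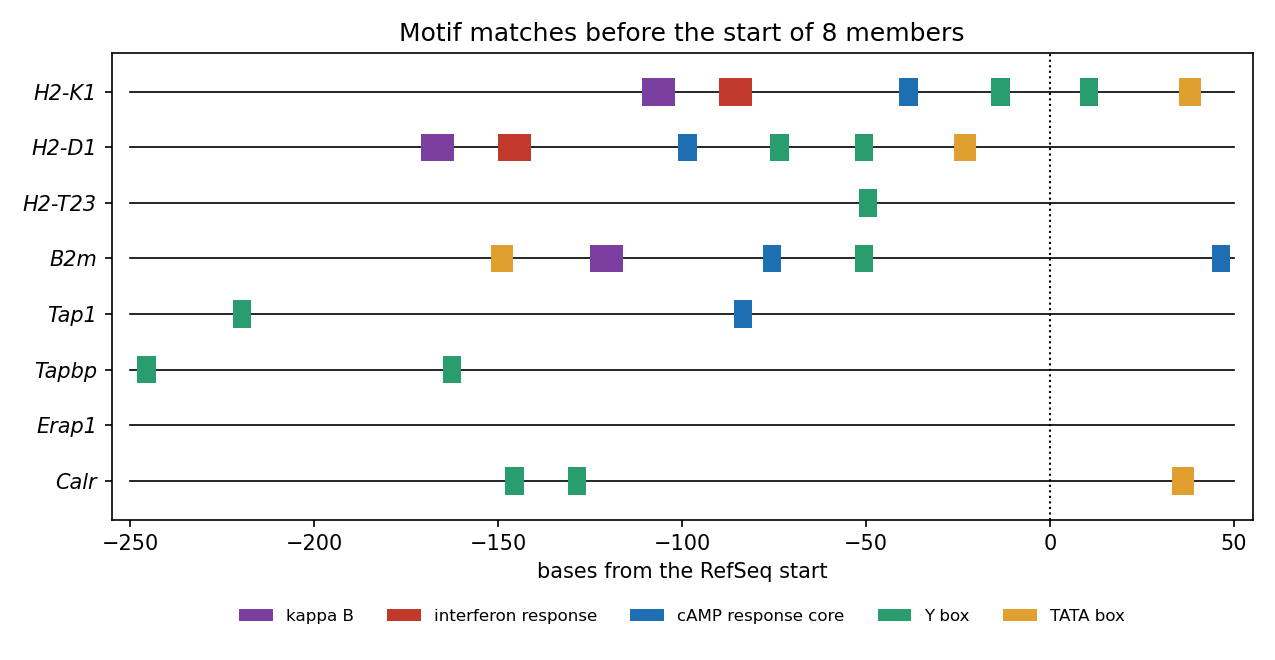
Positions of the motif matches of 8 members, in bases from the RefSeq start (dotted line), over 250 bases before and 50 bases after it. Each bar is 1 match, coloured by motif and drawn to its length; for H2-K1 the first of the RefSeq starts listed is used. H2-K1 and H2-D1 carry the same series of 6 matches, shifted against the start, and Erap1 has none.

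The totals behind the RPKM, recovered from the steps between values, were 16716721 to 28772351 reads per allele and library, and replicate 4 had the fewest. All 10 pluripotency markers were at 1 RPKM or more, led by Dppa5a with 7111 ± 907 RPKM, Zfp42 with 512 ± 47, Tdgf1 with 488 ± 57 and Sox2 with 125 ± 14 (SD, n = 4 libraries). Of 12 fibroblast markers 9 reached 1 RPKM, led by the collagen genes Col1a2 (166 ± 18), Col5a2 (17.3 ± 1.8) and by Postn (15.4 ± 2.2) and Col3a1 (11.4 ± 1.5). With all annotated exons as its length, Col1a2 had 11.3 RPKM. Their summed level was 207.5 to 262 RPKM on S129 and 192 to 237.5 on CAST, and Thy1 was the marker called at 2-fold or more (2.49 RPKM on S129, 0.652 on CAST, log2 difference 1.84, limma adjusted p = 5.38e-04). Of 8 haematopoietic markers 2 reached 1 RPKM, Spi1 (3.44 ± 0.28) and Cd3e (2.46 ± 0.34), then Cd79a (0.475 ± 0.10) and Csf1r (0.430 ± 0.051), and the pan-leukocyte Ptprc had 0.0199 RPKM. With the length of all exons, Spi1 had 0.695 and Cd3e 0.881 RPKM, so that 0 of the 8 reached 1 RPKM. The share of fibroblast RNA in the levels below was not tested, and in bulk RNA fewer cells and less RNA per cell cannot be told apart.

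The members spanned more than 4 orders of magnitude, from Calr, higher than 99.1% of all genes listed, to H2-T23, which had 6 reads in all. As the mean of both alleles, Calr had 454.5 ± 52 RPKM, B2m 149 ± 22, Tapbp 62.9 ± 3.4, H2-K1 9.45 ± 0.73, Nlrc5 8.58 ± 0.32, Tap1 6.69 ± 0.90, Erap1 2.24 ± 0.26, H2-D1 0.839 ± 0.18, Tap2 0.446 ± 0.13 and H2-T23 0.0119 ± 0.0073 (SD, n = 4 libraries). In this order the 4 libraries of H2-K1 and Nlrc5 overlapped, and those of all other neighbours lay apart. At 1 RPKM or more were 7 of 10 members, beside 49.7% of all genes. B2m was higher than 97.2% of all genes listed, H2-K1 than 74.8% and Tap1 than 70.3%, while H2-D1 was higher than 48.8%, Tap2 than 43.5% and H2-T23 than 20.9%.

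**Figure D2:**
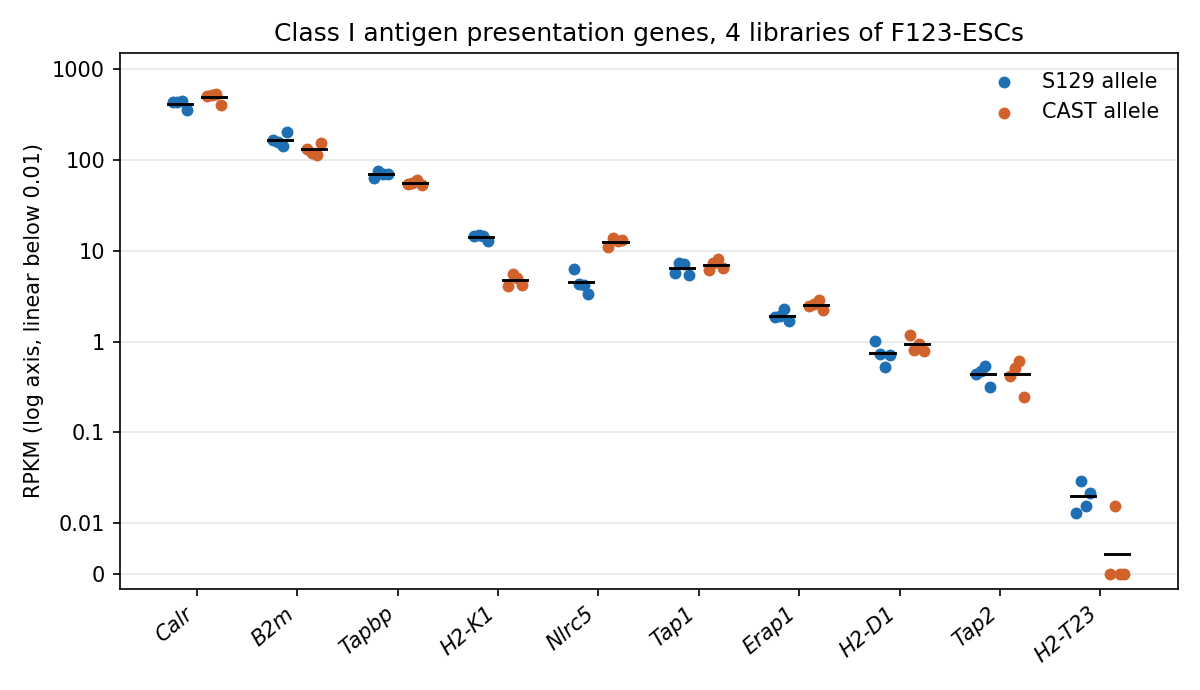
RPKM of each member on the S129 (blue) and CAST (orange) allele, on a log axis that is linear below 0.01. Points are the 4 libraries in the order of their numbers and black lines the means; among the 8 members tested, the alleles of H2-K1 and Nlrc5 stand apart by the largest distances, in opposite directions, and H2-T23 rests on 6 reads.

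The place of Tapbp and Nlrc5 in this order turned on the gene length behind the RPKM. That length was the first listed GENCODE transcript, 413 bp for Tapbp (3 exons, 33915899 to 33920415) and 346 bp for Nlrc5 (3 exons, 94434356 to 94470008, a transcript with no coding sequence annotated), while all annotated exons span 3628 and 8493 bp, 8.78 and 24.5 times as much. Recomputed over all annotated exons, Tapbp had 7.16 ± 0.39 RPKM and Nlrc5 0.350 ± 0.013 (SD, n = 4), H2-K1 5.05 ± 0.39, Tap1 3.61 ± 0.49, Erap1 1.73 ± 0.20 and Calr 345 ± 39. Nlrc5 then stood ninth, after Tap2 (0.406 ± 0.11), whose libraries overlapped with it, and no other neighbours overlapped. Over all protein-coding genes above 0, the median deposited level was 1.27 RPKM where all exons were at most 1.5 times the length used (9976 genes) and 36.8 RPKM where they were over 10 times that length (517 genes), against 1.14 and 2.02 RPKM with the length of all exons. Whether reads were counted over the first listed transcript or over the whole gene is not given in the sources used here. If over that transcript, the recomputed levels and their order would not hold. Reads that cover no SNP between the strains enter none of these values, so levels also depend on how many SNPs a gene carries.

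**Figure D3:**
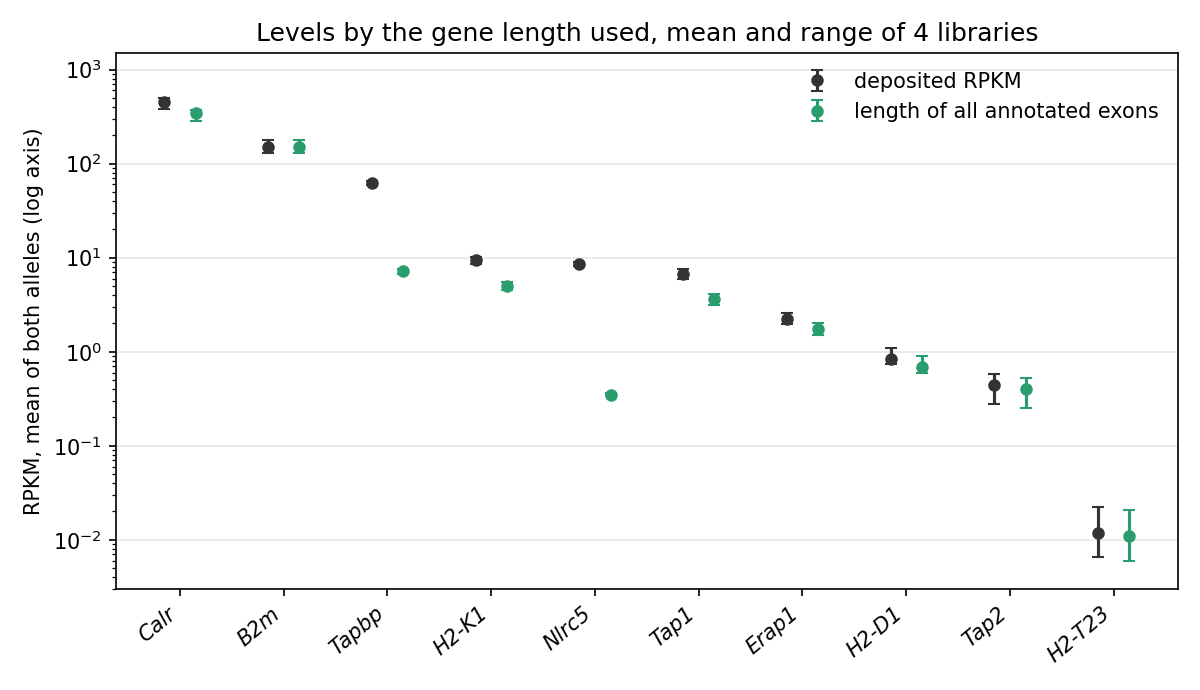
Mean of both alleles in RPKM on a log axis, as deposited (dark) and with all annotated exons counted as the length (green). Points are means and bars the range of the 4 libraries; Tapbp falls from 62.9 to 7.16 and Nlrc5 from 8.58 to 0.350, and B2m keeps its 149.

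Between the alleles, H2-K1, the classical heavy chain gene (ENSMUSG00000061232, mm10 chromosome 17, 33996017 to 34000347, minus strand), was about 3 times higher on S129. Its S129 allele had 14.4, 14.9, 14.6 and 12.8 RPKM in replicates 1 to 4, from 652, 601, 562 and 351 reads. Its CAST allele had 4.05, 5.59, 4.96 and 4.23 RPKM, from 177, 216, 184 and 111 reads. Every S129 value was above every CAST value, and S129 took 73.6% to 78.7% of the reads in the 4 libraries. The log2 difference, S129 minus CAST on the log2(RPKM + 0.1) scale used for all differences here, was 1.58 (SE 0.076, a fold of 2.99, adjusted p = 1.47e-04, by limma and the Benjamini-Hochberg method over 13341 genes). Among all genes tested, those outside the autosomes included, 9.20% had a difference of at least this size in either direction.

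H2-D1 (ENSMUSG00000073411, chromosome 17, 35262730 to 35267499, plus strand), the other classical heavy chain gene, was far lower and did not pass the test. Its S129 allele had 1.03, 0.723, 0.523 and 0.711 RPKM from 62, 39, 27 and 26 reads. Its CAST allele had 1.18, 0.812, 0.946 and 0.797 RPKM from 69, 42, 47 and 28 reads. CAST was higher in 4 of 4 libraries, but the alleles overlapped, and replicate 3 stood apart with a log2 difference of -0.75 against -0.15 to -0.18 in the others. The log2 difference was -0.31 (SE 0.13, limma adjusted p = 0.0931), and without replicate 3 it was -0.16 (limma adjusted p = 0.0458). In replicate 3, the exact 95% Poisson intervals, which cover counting error only, were 0.345 to 0.761 RPKM for S129 and 0.695 to 1.26 RPKM for CAST.

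H2-T23, which encodes the nonclassical heavy chain Qa-1 (ENSMUSG00000067212, chromosome 17, 36029773 to 36032855, minus strand), was at the limit of detection. Its S129 allele had 1, 2, 1 and 1 reads, or 0.0132, 0.0295, 0.0154 and 0.0217 RPKM. Its CAST allele had 1 read in replicate 2 and 0 in replicates 1, 3 and 4, where 3 reads, the limit that a count of 0 allows, would be 0.0408, 0.0481 and 0.0679 RPKM. S129 was higher in 4 of 4 libraries, by 1 read in each. With 6 reads in all, H2-T23 was below the filter of the test, 1 RPKM for both alleles together. With no such filter it passed as higher on S129 (log2 difference 0.21, limma adjusted p = 0.0214), where nearly all of each value is the pseudocount of 0.1. The length behind the RPKM of H2-T23, 2642 bp, is that of a 2-exon transcript annotated as a retained intron, and all exons span 2889 bp.

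Reads of the heavy chain genes can match other class I genes. Of the 75-base windows in the transcript behind each RPKM, 24 of 1496 in H2-K1, 140 of 2028 in H2-D1 and 180 of 2568 in H2-T23 were identical in a transcript of another gene, and 0 in the other 7 members. H2-K1 and H2-D1 share 91 identical coding bases, from base 738 to 828 of the 1080 coding bases of H2-K1. With 150-base windows, H2-K1 shared 0, H2-D1 1.79% and H2-T23 0.441%. These shares count only identical reference sequence, so they do not bound the uncertainty of these 3 genes. Windows that differ by a few bases were not counted. How well CAST reads of such polymorphic genes align to the masked genome was not tested.

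B2m, the light chain of every class I molecule (ENSMUSG00000060802, chromosome 2, 122147686 to 122153083, plus strand), was 1.28 times higher on S129. Its S129 allele had 165, 157, 144 and 204 RPKM. Its CAST allele had 133, 120, 114 and 155 RPKM. Replicate 4 was highest on both alleles, and although the ranges of the alleles overlapped, S129 was higher in 4 of 4 libraries with 56.1% to 57.8% of the reads. The log2 difference was 0.36 (SE 0.033, limma adjusted p = 0.00108), and without pairing the alleles of a library it did not pass (limma adjusted p = 0.0550).

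The transporter genes lie close together on chromosome 17 and showed no allele difference past the test. Tap1 (ENSMUSG00000037321, 34187553 to 34197225) had 5.76, 7.37, 7.06 and 5.37 RPKM on S129 and 6.13, 7.40, 8.04 and 6.38 RPKM on CAST. CAST was higher in 4 of 4 libraries, by as little as -0.005 on the log2 scale in replicate 2, and the log2 difference was -0.13 (SE 0.052, limma adjusted p = 0.0872). Tap2 (ENSMUSG00000024339, 34203527 to 34216321) was 15.0 times lower than Tap1 on the deposited scale, and had 0.406 against 3.61 RPKM with the length of all exons. It had 0.444, 0.475, 0.544 and 0.317 RPKM on S129 and 0.417, 0.508, 0.615 and 0.243 RPKM on CAST, from 14 to 50 reads. S129 was higher in 2 of 4 libraries, and Tap2 was below the filter of the test. Both transporter genes were lowest in replicate 4, where Tap1 had 5.88 and Tap2 0.280 RPKM as the mean of both alleles.

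Tapbp, whose product tapasin bridges the transporter and the heavy chain (ENSMUSG00000024308, chromosome 17, 33915899 to 33929292, plus strand), was 1.26 times higher on S129. It had 63.7, 76.1, 70.7 and 70.0 RPKM on S129 and 54.0, 55.2, 60.8 and 52.6 RPKM on CAST. The alleles did not overlap, and the log2 difference was 0.33 (SE 0.058, limma adjusted p = 0.00804). The difference is free of the gene length, since both alleles are divided by the same one.

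Calr, the lectin chaperone of the loading complex (ENSMUSG00000003814, chromosome 8, 84841850 to 84846934, minus strand), was higher on CAST, by about as much as the median gene of its chromosome. It had 434, 432, 450 and 352 RPKM on S129 and 511, 518, 535 and 405 RPKM on CAST, with replicate 4 lowest on both. The log2 difference was -0.24 (SE 0.030, limma adjusted p = 0.00291), with CAST higher in 4 of 4 libraries. The median log2 difference of the 713 genes tested on chromosome 8 was -0.233 ± 0.0010 (SD, n = 4 libraries). With the median of the chromosome taken out, Calr was at -0.004 (SE 0.030, limma adjusted p = 0.923). Without pairing the alleles of a library it did not pass either (limma adjusted p = 0.130).

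Nlrc5, the class I transactivator (ENSMUSG00000074151, chromosome 8, 94434356 to 94527272, plus strand), was 2.80 times higher on CAST. Its S129 allele had 6.33, 4.28, 4.24 and 3.32 RPKM, from 63, 38, 36 and 20 reads. Its CAST allele had 10.9, 13.7, 12.7 and 13.1 RPKM, from 105, 117, 104 and 76 reads. The alleles did not overlap, and replicate 1 was the nearest to equal, with 37.5% of reads from S129 against 20.8% to 25.7% in the others. The log2 difference was -1.49 (SE 0.21, limma adjusted p = 0.00411), and -1.25 (SE 0.21, limma adjusted p = 0.00762) with the median of chromosome 8 taken out. A difference of at least this size in either direction was found in 9.88% of the genes tested, those outside the autosomes included. Nlrc5 passed the filter of the test with its length of 346 bp, that of a transcript with no coding sequence annotated. If reads were counted over that transcript, the difference covers its 3 exons only and not the rest of the gene. If reads were counted over the whole gene, its level with all exons was 0.350 RPKM as the mean of both alleles. It would then be below that filter.

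Erap1, the aminopeptidase that trims peptides in the endoplasmic reticulum (ENSMUSG00000021583, chromosome 13, 74639568 to 74693201, plus strand), was 1.30 times higher on CAST. It had 1.88, 1.89, 2.27 and 1.70 RPKM on S129 and 2.45, 2.58, 2.89 and 2.23 RPKM on CAST. Replicate 3 was highest and replicate 4 lowest on both alleles. The ranges overlapped, but CAST was higher in 4 of 4 libraries by nearly the same amount, and the log2 difference was -0.37 (SE 0.032, limma adjusted p = 8.70e-04). On the opposite strand, the calpastatin gene Cast (8.65 RPKM on S129 and 8.99 on CAST) shares 834 of the 5644 bases behind the RPKM of Erap1. Whether counting used the strand is not given in the sources used here, so reads of Cast in Erap1 cannot be told apart. Of the bases behind the RPKM of the other members, Tapbp shares 61 of 413 with Zbtb22 on the same strand. On the deposited scale Zbtb22 had 67.0 RPKM on S129 and 60.6 on CAST, near the level of Tapbp. The length behind these values is short as well, 387 bp against 2673 bp for all exons of Zbtb22. Nlrc5 shares 78 of 346 with a lincRNA gene on the opposite strand (0.139 and 0.0591 RPKM), Tap1 shares 212 of 2953 with Psmb9 on the opposite strand (3.39 and 4.04 RPKM), and B2m shares 0 with Patl2, whose annotation spans it. How reads of these shared bases were assigned was not tested.

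In all, 6 of the 8 members tested passed limma at an adjusted p of 0.05, beside 62.7% of all 13341 genes tested. H2-K1, B2m and Tapbp were higher on S129, as were 31.4% of all genes tested, and Nlrc5, Erap1 and Calr were higher on CAST, as were 31.3%. Their median absolute log2 difference was 0.34, against 0.31 over all genes tested, and their median difference was -0.18 against -0.003. One member passed with at least 2-fold on each side, H2-K1 on S129, beside 9.55% of all genes tested, and Nlrc5 on CAST, beside 5.43%. The shares of all genes in this paragraph include genes outside the autosomes, where no member lies. Over the 12869 autosomal genes alone, 3724 were higher on S129 and 4179 on CAST. In 3 of the 8 members tested (H2-K1, Tapbp and Nlrc5) the alleles did not overlap, beside 45.6% of the genes tested. The members as a group therefore had no common direction between the alleles, and their share of calls was near that of all genes.

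**Figure D4:**
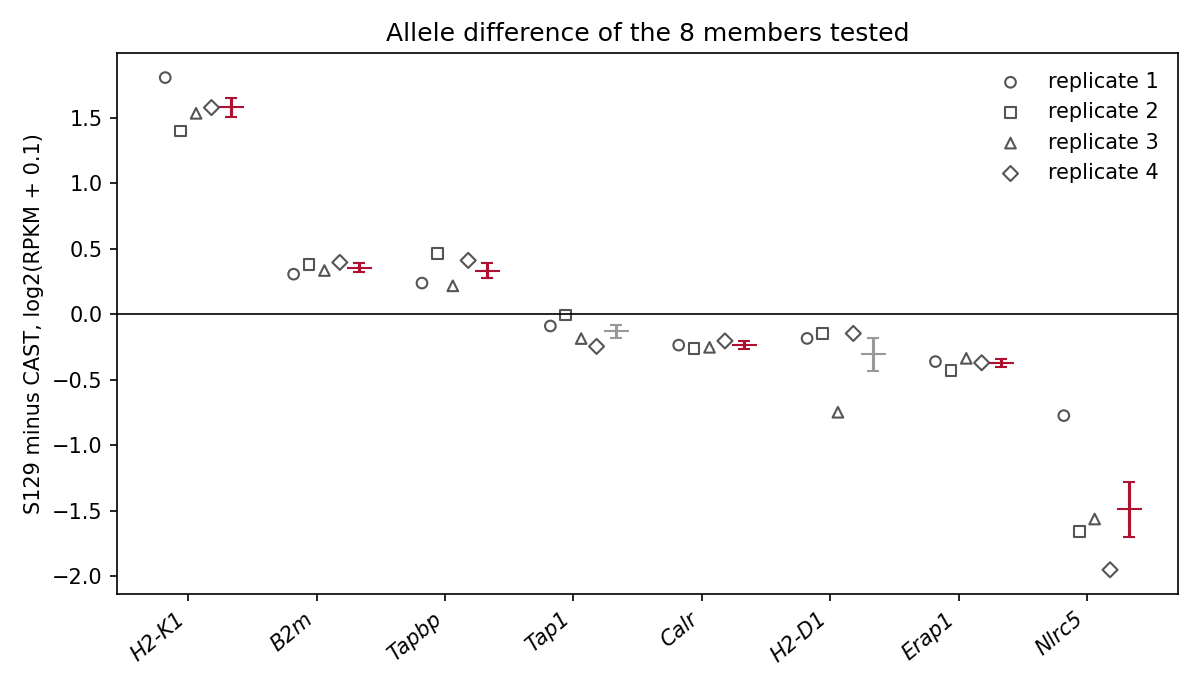
Log2 difference of S129 minus CAST on the log2(RPKM + 0.1) scale for the 8 members tested. Open symbols are the 4 libraries, and bars to their right the mean ± SE, in red where limma's adjusted p was under 0.05; H2-K1 lies highest at 1.58 and Nlrc5 lowest at -1.49, and replicate 3 of H2-D1 and replicate 1 of Nlrc5 stand off from the others.

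Along chromosome 17 the calls of the members differed as well. Tapbp, H2-K1, Tap1 and Tap2 lie within 300.4 kb of chromosome 17, and H2-K1 and Tapbp were called higher on S129 while Tap1 was not called. The median log2 difference on chromosome 17 was -0.045 ± 0.015 (SD, n = 4; 646 genes). Of 95 other genes tested within 500 kb of a member of chromosome 17, 24 were higher on S129 and 25 on CAST, with different leanings by place. Around H2-K1 and around Tapbp, 14 of 34 such genes were higher on S129 and 5 on CAST, and around Tap1 and Tap2, 15 of 38 and 6. Around H2-D1, 7 of 39 were higher on S129 and 13 on CAST, and around H2-T23, 1 of 20 and 8. These neighbourhoods share genes, and the difference between them was not tested. The called genes near any member with the largest differences were Myo1f (11.4 RPKM on S129, 0.531 on CAST, log2 difference 4.20, limma adjusted p = 2.92e-05), the pseudogene Gm8801 (0.0470 and 1.30 RPKM, -3.22, limma adjusted p = 0.00120) and AA467197 (2.11 and 10.3 RPKM, -2.26, limma adjusted p = 1.22e-04). Over the 8 log2 values, the protein-coding genes nearest to H2-K1 were Fam185a and Nfyc (root mean square distances 0.158 and 0.182), and those nearest to Nlrc5 were Acot1 and Tlnrd1 (0.233 and 0.251). None of these 4 lies on the chromosome of the member it resembled.

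The rest of the pathway was as mixed. Of 25 other class I and class I-like chains, 6 reached 1 RPKM and 6 were listed at 0, and of 8 tested 3 were higher on S129, 2 on CAST and 3 not called. The highest was H2-M5, at 22.9 RPKM on S129 and 11.6 on CAST (log2 difference 0.98, limma adjusted p = 1.12e-04), above both classical heavy chain genes on the deposited scale and on that of all exons (15.8 RPKM against 5.05 for H2-K1). Then came Cd1d1, a chain that presents lipids (0.72, limma adjusted p = 0.00206), H2-M3 (-0.05, limma adjusted p = 0.416) and Procr (-0.50, limma adjusted p = 0.0152).

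Of the 5 proteasome subunits and activators that can be exchanged, 3 were higher on CAST and 2 not called. Psmb10 (log2 difference -0.40), Psme2 (-0.97) and Psmb9 (-0.25, limma adjusted p = 0.0297) were called, and Psme1 (-0.03) and Psmb8 (0.17) were not. On the deposited scale, Psmb10 had 119 ± 10 RPKM, Psme2 88.2 ± 6.4 and Psme1 65.4 ± 4.2, while Psmb9 and Psmb8, the neighbours of Tap1 and Tap2, had 3.72 ± 0.092 and 3.69 ± 0.56 (SD, n = 4). Psmb5, Psmb6 and Psmb7 of the constitutive proteasome had 107.5 ± 4.2, 1346 ± 122 and 678 ± 3.3 RPKM. With the length of all exons, Psmb10 had 29.6 RPKM and Psmb5 107.5. Psmb5 was 3.35 times higher on CAST (49.5 against 166 RPKM, log2 difference -1.74, limma adjusted p = 1.45e-05). The lengths of Psmb8 and Psmb9 behind the RPKM were not recovered.

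Among 13 other genes of peptide loading, chaperoning and trimming, 6 were higher on S129, 2 on CAST and 5 not called. The highest were Lap3 (200.2 RPKM, log2 difference 0.45, limma adjusted p = 5.69e-04), Tpp2 (185 RPKM, 0.13, limma adjusted p = 0.0521), Canx (154 RPKM, 0.09, limma adjusted p = 0.0582) and Blmh (82.8 RPKM, 0.20, limma adjusted p = 0.0119). This order is that of the deposited RPKM, and with the length of all exons Tpp2 had 8.25 and Blmh 8.76 RPKM, below Pdia4 (55.7) and Hspa5 (53.0).

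Of 21 regulators of class I genes, 19 were tested, 6 were higher on S129, 5 on CAST and 8 not called. The highest by deposited RPKM were Nfyb (33.7), Creb1 (24.3), Stat2 (19.4) and Irf1 (14.3), of which Stat2 was called (log2 difference 1.04, limma adjusted p = 1.50e-04). With the length of all exons, Creb1 had 2.78 and Stat2 2.40 RPKM, below Ifnar1 (9.18) and Nfyc (6.32). The others called at 2-fold or more were Nfyc, a subunit of the Y box factor (1.78, limma adjusted p = 1.04e-05), and Rfxap, a subunit of the X box factor (-1.16, limma adjusted p = 1.81e-04). The 10 class II genes had at most 11.9 RPKM, led by H2-Eb1 (log2 difference -0.92, limma adjusted p = 7.48e-04), H2-DMa (3.04), H2-Ab1 (2.32) and Cd74 (2.10), and of 6 tested only H2-Eb1 passed. This order is that of the deposited RPKM. The lengths behind the RPKM of H2-Eb1, H2-DMa and H2-Ab1 were not recovered, so their levels with all exons are not known.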

How the data were processed

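The authors removed ribosomal RNA reads with SortMeRNA, trimmed with Trimmomatic (version 0.40 in the submitters' processing notes), aligned with STAR to mm10 masked at strain SNPs and divided reads by SNPsplit. They deposited RPKM values per gene and allele in 4 libraries; the counter and the annotation are not given in the sources used here. The authors' averages and log10 values were not used. Read totals and lengths were recovered from the steps of the values with GENCODE M21 (23995 of 24026 genes matched; reads came out whole, within 0.02 reads, in 19130 of 20243 genes above 0, or 94.5%).

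Alleles were compared by limma 3.58.1 (R 4.3.3) on within-library differences of log2(RPKM + 0.1), which understate changes of low genes. Genes with at least 1 RPKM over both alleles together were tested, with Benjamini-Hochberg adjustment at 0.05. The deviations of columns of one library had weak correlations of 0.106 to 0.202, against -0.162 to 0.145 between libraries, and these ranges overlap. The pairing comes from the columns being reads of the same library. Named were all members, the 4 highest genes of each list and its genes called at 2-fold, 3 called neighbours within 500 kb, and 2 similar genes for each of 2 members. The members and lists were chosen with earlier results of these data known. limma, Dixon's criterion and the recovery were tested on simulated data; figures used matplotlib 3.10.9. Intervals cover counting error only.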

Additional observations from a re-analysis of the deposited data

Results flagged for a closer look

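Dixon's criterion at the 95% level was applied to 18 quantities, the level of the 10 members and the allele difference of the 8 tested, and 2 exceeded it, both of H2-D1. Chance gives about 1 in 20. The mean of both alleles of H2-D1 was 1.10 RPKM in replicate 1 and 0.735 to 0.767 RPKM in the others. The log2 difference of H2-D1 was -0.748 in replicate 3, where S129 had 27 reads and CAST 47, and -0.184 to -0.146 in the others. Their cause was not tested.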

How the results depend on the processing

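The allele differences of the 8 members tested kept their direction in all 118 recomputations (15 alternatives, fewer for H2-D1 and Erap1, which were below a filter of 5 RPKM). Of these, 4 changed a call. With the median of the chromosome taken out, Calr was at -0.004 (adjusted p = 0.923), and without a replicate block B2m (adjusted p = 0.0550) and Calr (adjusted p = 0.130) did not pass. Without replicate 3, H2-D1 passed (adjusted p = 0.0458), over a range of 0.0458 to 0.206 for its alternatives, all from limma. Leaving out 1 library moved H2-K1 between 1.51 and 1.64 and Nlrc5 between -1.73 and -1.33. The block changed no other call of a member, and over all genes 3292 and 3133 were higher on S129 and CAST without it, beside 4187 and 4182.

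RPKM rescaled to one autosomal sum moved the median of all genes from -0.003 to 0.098 and the calls to 5121 higher on S129 and 3072 on CAST, and no call of a member changed. With no filter, H2-T23 passed as higher on S129 on 6 reads. Levels moved by over 1 SD in 16 of 90 recomputations, of which 6 came from the length of all exons, added with whole reads undivided and autosomal genes after seeing the data. Members at 1 RPKM or more were 6 to 8 under all alternatives, beside 7. Depth limits H2-T23, Tap2 and H2-D1, with at most 69 reads per allele and library. It also limits Nlrc5, whose S129 allele had 20 to 63 reads per library.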
